A study of Homo sapiens with 3 samples.

Results

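The nuclear receptor genes were examined in the histone mark profiles of H2087, a cell line established from a human lung adenocarcinoma. The members were 45 genes given by symbol, and each was found once among the 20163 protein-coding genes of the annotation. The rule used no measured value, but the members were chosen with earlier results of these data known. Chromatin immunoprecipitation followed by sequencing (ChIP-seq) had been carried out on untreated cells with an antibody against trimethylated lysine 4 or acetylated lysine 27 of histone H3 (H3K4me3 and H3K27ac). Each mark was represented by 1 library, and the remaining library, the input chromatin without immunoprecipitation, was not analysed here. No value therefore has a replicate, no test between samples was possible, and intervals below are exact Clopper-Pearson 95% intervals that cover counting error only.

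Nuclear receptors are transcription factors that bind DNA through a zinc finger domain and, in many cases, change their activity when a small lipophilic ligand such as a steroid, a retinoid, vitamin D, a fatty acid or a bile acid enters their ligand-binding domain. Steroid receptors bind DNA mostly as homodimers, many other receptors pair with a retinoid X receptor, and orphan receptors act without a known natural ligand. In lung epithelium, glucocorticoid and retinoid receptors are known for their parts in maturation and repair. H3K4me3 is typical of promoters in use, and H3K27ac marks both these promoters and active enhancers.

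The H3K4me3 list held 18585 peaks and the H3K27ac list 24096, with a median score of 2.97 and 2.65. The score was read as the −log10 q of the peak caller, so a score of 1.3 stands for a q of 0.05, and its size depends on depth, which is unknown here. Scores are therefore compared only within a list, by the percentile of peaks of the same mark that score lower. Of 13 lung adenocarcinoma and epithelial markers, 8 had each mark within 1 kb of the outer 5′ end of the gene and 7 had both. Over all protein-coding genes, 38.2% had H3K4me3 there, 23.6% had H3K27ac and 18.6% had both. The markers with both included NKX2-1 (H3K4me3 score 1.58, H3K27ac score 2.82) and KRT8 (18.9 and 14.8). The surfactant genes SFTPA1, SFTPB and SFTPC and the protease gene NAPSA had neither mark at the outer 5′ end. Of 12 annotated markers of other cell types, 10 had neither mark, as had 56.8% of all protein-coding genes. The exceptions were ACTA2 with H3K4me3 (2.97) and CD68 with H3K27ac (2.1). A peak cannot tell a mark carried by more cells from a mark at more nucleosomes per cell.

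The first question was how many receptor genes carried the marks at their start, taken as the outer 5′ end of the gene. An H3K4me3 peak lay within 1 kb of the outer start in 14 of 45 members (31.1%, interval 18.2 to 46.6), beside 38.2% of all protein-coding genes. An H3K27ac peak lay there in 8 members (17.8%, 8.0 to 32.1), beside 23.6%. Both marks were present in 6 members (13.3%, 5.05 to 26.8), beside 18.6%, and neither in 29 (64.4%, 48.8 to 78.1), beside 56.8%. All 4 background shares fell within the interval of the members, so the receptor genes were not set apart from other genes by these counts. The 6 members with both marks were RARG, PPARA, PPARD, NR1D1, ESRRA and NR6A1. H3K4me3 alone marked NR3C2, PGR, RXRB, PPARG, HNF4G, NR2C1, NR2F6 and NR4A1, and H3K27ac alone marked RARA and NR2E3.

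Many of these genes are long and have several annotated promoters, and the choice of start changed the counts. The start of the canonical transcript lay more than 1 kb from the outer start in 19 of 45 members, and this share was not computed for all genes. At canonical starts, 17 members had H3K4me3 (37.8%, 23.8 to 53.5) beside 41.3% of all genes, and 9 had H3K27ac (20.0%, 9.58 to 34.6) beside 25.2%. When the start of any annotated transcript was allowed, 23 members had H3K4me3 (51.1%, 35.8 to 66.3) beside 45.4%, 16 had H3K27ac (35.6%, 21.9 to 51.2) beside 30.7%, and 13 had both (28.9%, 16.4 to 44.3) beside 25.3%. H3K4me3 was gained in this way by 9 members and H3K27ac by 8. The shares of all genes also rose, from 38.2% to 45.4% for H3K4me3 and from 23.6% to 30.7% for H3K27ac. The members thus went from below the share of all genes at outer starts to above it at all starts, inside the counting interval in every case.

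**Figure D1:**
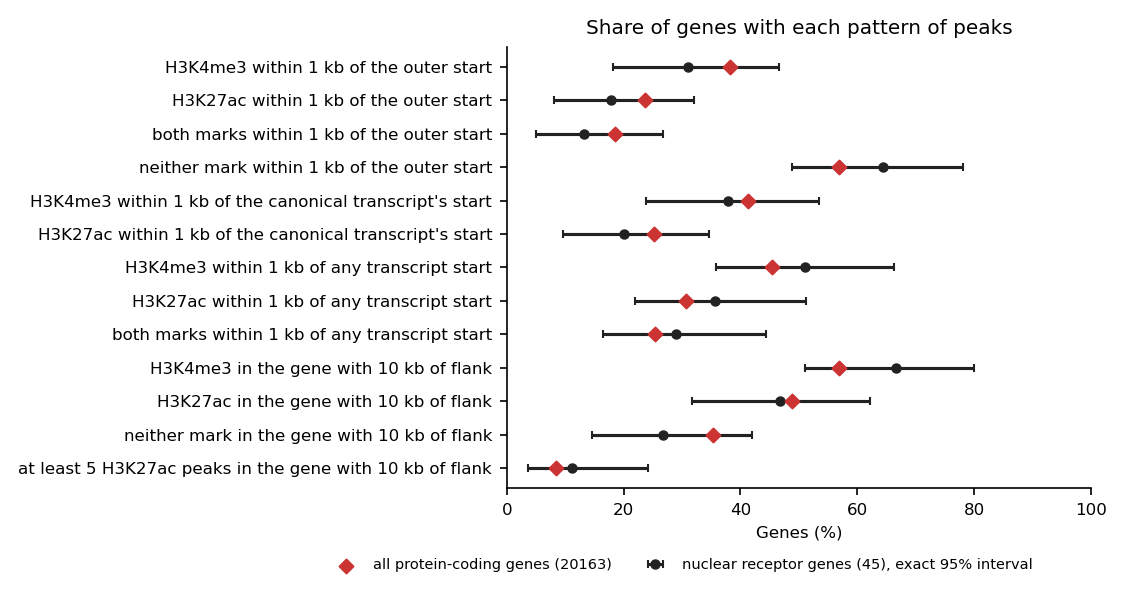
Share of genes in percent (horizontal axis) with each pattern of peaks, for the 45 nuclear receptor genes (black points with exact 95% intervals) and for all 20163 protein-coding genes (red diamonds). Each red diamond lies inside the interval of the members, from 8.41% for at least 5 H3K27ac peaks in the window to 56.8% for an H3K4me3 peak in the window.

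Over a wider window, the gene with 10 kb on each side, 30 members held at least 1 H3K4me3 peak (66.7%, 51.0 to 80.0) beside 56.8% of all genes, and 21 held at least 1 H3K27ac peak (46.7%, 31.7 to 62.1) beside 48.9%. Neither mark occurred in the windows of 12 members (26.7%, 14.6 to 41.9), beside 35.3%. These were THRB, RARB, RXRG, NR1I2, NR1D2, RORB, HNF4A, NR2C2, NR2E1, ESRRB, ESRRG and NR4A3. The members' windows were longer than usual, with a median of 73.7 kb against 47.2 kb. Per 100 kb of window they held 1.01 H3K4me3 and 1.3 H3K27ac peaks, against 1.5 and 1.61 for all genes, while the mean number per window was higher, 1.64 and 2.11 against 1.32 and 1.43. Among windows under 50 kb, 12 of 14 members held H3K4me3 (85.7%), beside 51.9% of all genes with such windows, and 9 held H3K27ac (64.3%), beside 45.2%. Among these 12, every H3K4me3 peak of RXRB, NR1H3, NR1I3 and NR0B2 lay within 1 kb of another gene's start. In RXRB and NR1H3 some of these peaks also lay within 1 kb of an own start. The share of all genes with such windows that had only peaks of this kind was not computed. In windows of 50 to 100 kb the members were lower. There 5 of 10 held H3K4me3, beside 61.4% of all genes, and 3 held H3K27ac, beside 52.5%. Among windows over 100 kb, 13 of 21 held H3K4me3 (61.9%, beside 63.0%) and 9 held H3K27ac (42.9%, beside 53.7%). These classes hold few members, and no interval was computed for them. Whether the members appeared richer or poorer in peaks thus depended on how window length was taken into account.

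Scores at marked starts had lower medians in the members than in all genes. The highest H3K4me3 score at an outer start had a median of 3.02 over the 14 marked members, against 3.76 over all 7705 marked genes, and the H3K27ac score had a median of 2.34 over 8 members, against 3.05 over 4753 genes. No member reached an H3K4me3 score of 5 at its outer start, while 10.7% of all protein-coding genes did. NR2E3 alone reached an H3K27ac score of 5 there, beside 3.53% of all genes. Over all windows, 6 of 73 distinct H3K4me3 peaks (8.22%) and 2 of 92 distinct H3K27ac peaks (2.17%) had a score of at least 5, against 16.7% and 8.84% of the complete lists.

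**Figure D2:**
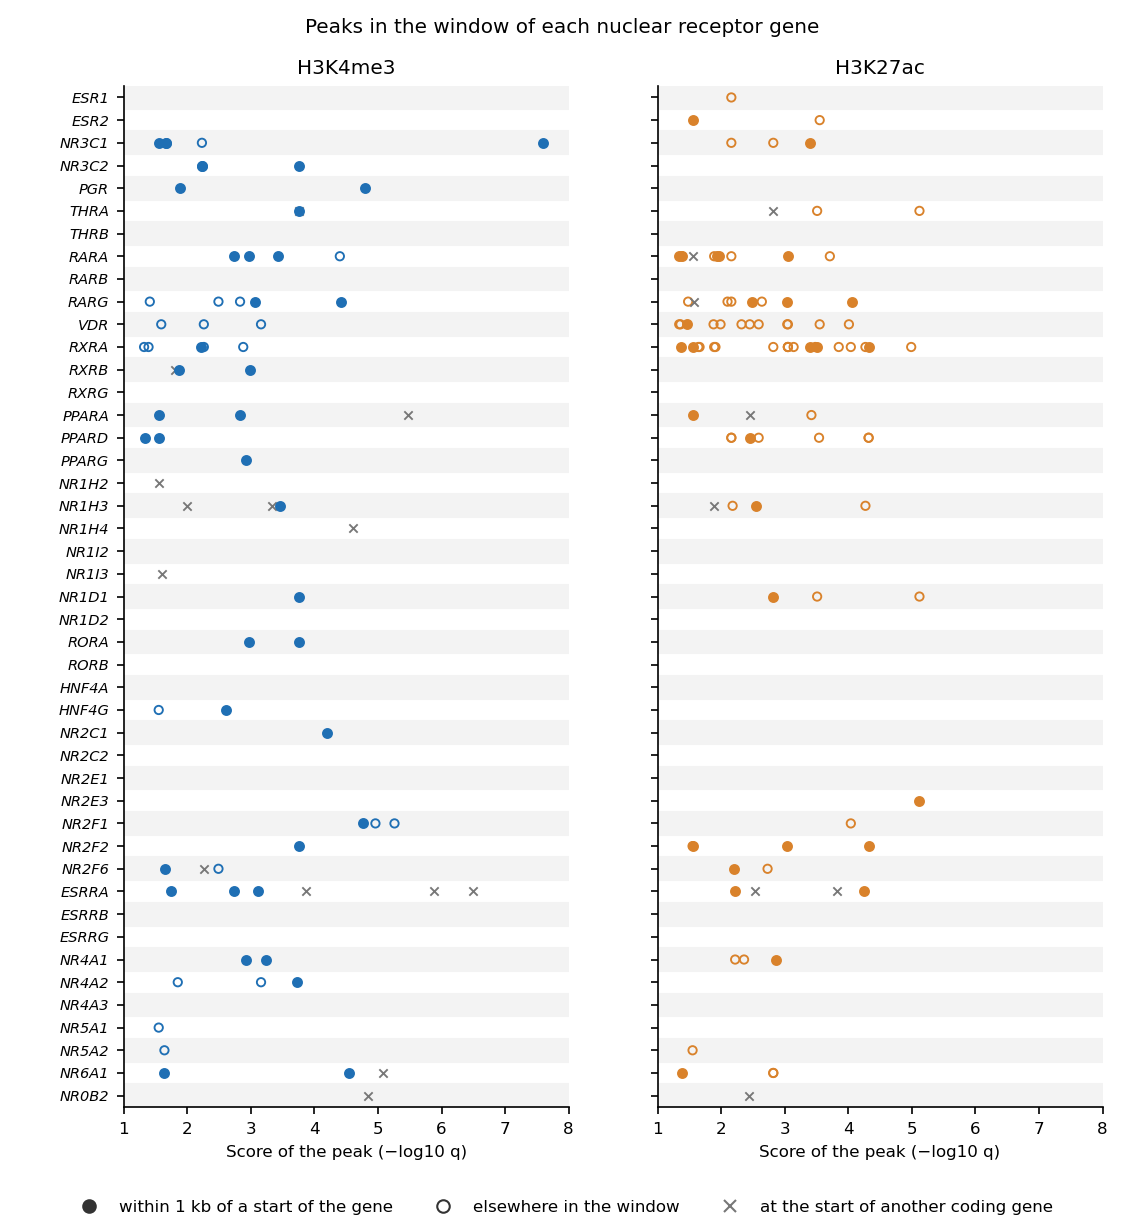
Score of every H3K4me3 peak (left) and H3K27ac peak (right) in the window of each of the 45 members, on a −log10 q axis. Filled circles are within 1 kb of a transcript start of the gene, and open circles lie elsewhere in the window. Crosses lie within 1 kb of a transcript start of another protein-coding gene, and 12 members have no point in either panel.

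The first group is the steroid receptors. NR3C1, the glucocorticoid receptor, had no peak at its outer start but 5 H3K4me3 and 3 H3K27ac peaks in its window. The strongest, chr5:142784449-142784770, had an H3K4me3 score of 7.59, higher than 96.0% of the list and the highest H3K4me3 score in any member window. It lay 30.5 kb downstream of the outer start and 118 bp from another annotated transcript start, and it overlapped an H3K27ac peak with a score of 3.40. The other 4 H3K4me3 scores in this window ranged from 1.55 to 2.23. The start of NR3C2, the mineralocorticoid receptor, held 2 H3K4me3 peaks with scores of 3.76 and 2.23, and another peak (2.23) lay in the untranslated part of exon 1, 2.55 kb downstream. No H3K27ac peak was present in its window.

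PGR, the progesterone receptor, had an H3K4me3 score of 4.79 at chr11:101000221-101000427, within exon 1, which was the highest among outer starts of the members and higher than 81.8% of the list. A wider peak of 607 bp (1.88) also reached the start region, and H3K27ac was not called anywhere in the window. The estrogen receptors had no H3K4me3 peak. ESR1 held 1 H3K27ac peak (2.16) in exon 7, 438 kb downstream of the outer start, and ESR2 held an H3K27ac peak of 3.55 at 1.7 kb upstream of the outer start and a peak of 1.55 beside its canonical start. H3K27ac was thus absent from the outer start of all 5 steroid receptor genes, while 23.6% of all protein-coding genes had it there. With any transcript start, 2 of the 5 had H3K27ac, NR3C1 and ESR2, beside 30.7% of all genes.

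The receptors for thyroid hormone, retinoids and vitamin D included 3 of the 5 windows with at least 5 H3K27ac peaks. RARA, retinoic acid receptor alpha, had 10 H3K27ac and 4 H3K4me3 peaks. At the outer start only a weak H3K27ac peak (1.93) was called, and the highest H3K27ac score, 3.71 at chr17:38471489-38471968, lay 6.30 kb downstream in intron 1. The H3K4me3 peaks lay 8.08, 10.4, 13.4 and 32.9 kb downstream, with scores of 3.43, 4.40, 2.97 and 2.73, and those at 8.08 and 32.9 kb overlapped H3K27ac. RARG, retinoic acid receptor gamma, had 8 H3K27ac and 5 H3K4me3 peaks in its window of 42.4 kb, 1 of the H3K27ac peaks (1.57) lying 8.31 kb upstream of the gene. Both marks met in the untranslated part of exon 1, with an H3K4me3 score of 3.07 and an H3K27ac score of 2.48, and the highest scores lay inside the gene, 4.42 for H3K4me3 at 13.5 kb and 4.06 for H3K27ac at 16.9 kb. RARB, retinoic acid receptor beta, had no peak of either mark.

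VDR, the vitamin D receptor, had 12 H3K27ac peaks without any mark at its outer start. Of these, 6 formed a cluster of 7.45 kb within intron 1 at chr12:48290189-48297640, with the highest score of 4.01 at chr12:48296084-48296301, 40.6 kb downstream. The 3 H3K4me3 peaks of the window had scores of 3.16, 2.26 and 1.59, and none lay within 1 kb of an annotated VDR start. THRA, thyroid hormone receptor alpha, had an H3K4me3 peak of 3.76 in the untranslated part of its canonical exon 1, 4.93 kb downstream of the outer start. Its other 4 window peaks were the same peaks as those of NR1D1, since the genes overlap at their 3′ ends. THRB, RARB and NR1D2, which are neighbours on chromosome 3 with gaps of 136536 and 192131 bp between them, had no peak in their windows, and within 2 Mb of each start only 1 other protein-coding start carried H3K4me3 and 1 carried H3K27ac, among 9 to 10. These 3 regions largely coincide.

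The retinoid X receptors, which are the partners of many other receptors, differed from each other. RXRA had 19 H3K27ac peaks, the most of any member and more than 99.7% of all protein-coding windows held. Its outer start was unmarked, and at 8.59 kb downstream, near the canonical start, an H3K4me3 peak (2.21) overlapped an H3K27ac peak (4.32). The strongest H3K27ac peak, chr9:137272817-137273082, had a score of 4.99 and lay in intron 1, 64.0 kb downstream. Its 5 H3K4me3 scores stayed between 1.32 and 2.88. RXRB had 2 H3K4me3 peaks at its start (2.98 and 1.87), both also within 1 kb of the start of its neighbour SLC39A7, a zinc transporter gene, and another at the start of HSD17B8. It had no H3K27ac peak, and RXRG had no peak of either mark.

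The highest-scoring H3K27ac peaks of RXRA and VDR are shown as the 300 bases around the peak centre, on the plus strand of hg19, because they lead the largest groups of H3K27ac peaks among the members. Capitals mark nuclear receptor half-sites on either strand, counted as the letters AGGTCA with the common variants written GGGTCA when the first base differs, AGTTCA when the third base differs, and GGTTCA when both do. The RXRA sequence, chr9:137272800-137273099, held 2 such matches and the VDR sequence, chr12:48296043-48296342, held 0.
RXRA intron 1: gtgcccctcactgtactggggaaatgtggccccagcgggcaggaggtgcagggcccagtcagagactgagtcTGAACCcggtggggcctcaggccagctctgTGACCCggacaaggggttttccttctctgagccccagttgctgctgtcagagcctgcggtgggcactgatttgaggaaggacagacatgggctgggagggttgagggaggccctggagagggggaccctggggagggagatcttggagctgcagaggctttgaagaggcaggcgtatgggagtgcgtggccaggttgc
VDR intron 1: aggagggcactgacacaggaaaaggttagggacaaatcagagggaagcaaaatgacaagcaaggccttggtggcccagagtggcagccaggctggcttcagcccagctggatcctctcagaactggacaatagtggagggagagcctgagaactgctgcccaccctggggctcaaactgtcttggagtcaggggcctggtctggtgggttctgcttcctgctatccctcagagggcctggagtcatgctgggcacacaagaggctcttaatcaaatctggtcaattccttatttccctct

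Among the sensors of fatty acids, oxysterols, bile acids and xenobiotics, the fatty acid receptors PPARA and PPARD had both marks at the start. PPARA had H3K4me3 scores of 2.83 and 1.55 and an H3K27ac score of 1.55 there, and a further H3K27ac peak of 3.42 lay 10.0 kb downstream in intron 2. The highest score in its window, 5.47, belonged to a peak at the start of the neighbouring gene CDPF1. PPARD had low scores at its start, 1.34 for H3K4me3 and 2.45 for H3K27ac, and its 6 other H3K27ac peaks lay in intron 2, between 28.6 and 61.6 kb downstream. The strongest of them, chr6:35360494-35361078 and chr6:35371797-35372094, each had a score of 4.32, higher than 84.8% of the list. PPARG, the adipogenic member, had 1 H3K4me3 peak (2.93) and no H3K27ac peak.

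NR1H3, the oxysterol receptor LXR alpha, had 3 H3K4me3 and 4 H3K27ac peaks in its window. All 3 H3K4me3 peaks lay within 1 kb of a start of the adjacent gene MADD, with scores of 3.46, 2.00 and 3.34. The peak of 3.46 also lay 135 bp from an annotated transcript start of NR1H3. The highest H3K27ac score, 4.27, lay in intron 7 of NR1H3. In the other sensors with a peak, it lay only within 1 kb of a start of another gene, counting every annotated transcript of that gene. The single H3K4me3 peak of NR1H2, the oxysterol receptor LXR beta, lay at a transcript start of NAPSA (1.55), 3936 bp from the outer start of NAPSA. That of NR1H4, the bile acid receptor, lay at GAS2L3 (4.60), and that of NR1I3, the xenobiotic receptor CAR, at TOMM40L (1.60). NR1I2, the xenobiotic receptor PXR, had no peak. NR0B2, which lacks a DNA-binding domain and represses other receptors, had 1 peak of each mark, both at a transcript start of NUDC (4.85 and 2.44).

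In the clock group, NR1D1, the heme-binding repressor REV-ERB alpha, was marked at its start by a 983-bp H3K4me3 peak (3.76) that overlapped an H3K27ac peak (2.82). The strongest H3K27ac peak of its window, chr17:38259280-38259923, had a score of 5.12, higher than 91.6% of the list, and lay 2.76 kb upstream without H3K4me3. Another H3K27ac peak (3.51) lay in intron 1. Its paralog NR1D2 had no peak of either mark in its window. RORA had 2 H3K4me3 peaks (3.76 and 2.97) at an internal transcript start, 638 and 637 kb downstream of its outer start, and RORB had none.

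The 250 bases before the outer start of 4 members are printed 5′ to 3′ on the strand of the gene to set marked beside unmarked promoters, with CG dinucleotides in capitals. NR1D1 (chr17:38256843-38257092, minus strand) and PPARA (chr22:46546174-46546423, plus strand) had both marks, and their sequences held 20 and 42 CG dinucleotides. NR1D2 (chr3:23986527-23986776, plus strand) and NR1I2 (chr3:119499081-119499330, plus strand) had neither mark and held 26 and 1. The unmarked NR1D2 promoter thus had more CG dinucleotides than the marked promoter of its paralog.
NR1D1 promoter: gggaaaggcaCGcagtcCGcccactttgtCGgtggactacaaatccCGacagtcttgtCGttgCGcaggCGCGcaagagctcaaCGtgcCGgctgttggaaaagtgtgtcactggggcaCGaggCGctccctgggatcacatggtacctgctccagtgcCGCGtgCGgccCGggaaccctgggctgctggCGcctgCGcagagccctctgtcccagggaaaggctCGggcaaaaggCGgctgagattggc
PPARA promoter: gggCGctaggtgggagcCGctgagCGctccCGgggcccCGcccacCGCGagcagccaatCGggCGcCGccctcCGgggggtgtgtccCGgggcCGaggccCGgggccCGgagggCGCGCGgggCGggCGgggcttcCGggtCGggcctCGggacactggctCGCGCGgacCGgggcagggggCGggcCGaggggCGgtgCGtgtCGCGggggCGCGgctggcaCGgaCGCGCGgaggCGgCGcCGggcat
NR1D2 promoter: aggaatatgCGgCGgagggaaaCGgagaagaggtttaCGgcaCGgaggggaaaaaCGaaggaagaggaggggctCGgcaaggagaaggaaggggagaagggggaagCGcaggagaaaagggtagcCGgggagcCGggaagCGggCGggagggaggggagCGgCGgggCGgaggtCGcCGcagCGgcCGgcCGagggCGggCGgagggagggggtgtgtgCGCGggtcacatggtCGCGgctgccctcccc
NR1I2 promoter: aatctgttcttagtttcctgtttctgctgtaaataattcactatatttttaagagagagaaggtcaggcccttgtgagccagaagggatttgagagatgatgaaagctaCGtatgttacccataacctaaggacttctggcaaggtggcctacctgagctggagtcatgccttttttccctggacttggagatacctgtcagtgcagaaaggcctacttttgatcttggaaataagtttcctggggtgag

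The HNF4 receptors, which are known from liver and gut epithelium, had few peaks. HNF4G had an H3K4me3 peak of 2.61 at its outer start and a peak of 1.55 at 71.0 kb, and HNF4A had no peak. Among the COUP-TF, testicular and tailless receptors, NR2C1 had a start peak of H3K4me3 with a score of 4.20, and NR2F6 had one of 1.65 with H3K27ac peaks of 2.20 and 2.73 inside the gene. NR2E3, the photoreceptor-specific receptor, had a single peak, of H3K27ac, at chr15:72084372-72084707. It lay 0.438 kb upstream of the outer start with a score of 5.12, but the canonical start was 17917 bp away. NR2C2 and NR2E1 had no peak.

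The COUP-TF genes NR2F1 and NR2F2 were unmarked at the outer start but not inside or near the gene. NR2F1 had 3 H3K4me3 peaks with scores of 4.96, 5.26 and 4.76, at 3.71 and 2.88 kb upstream and 2.21 kb downstream, and the peak of 5.26 overlapped an H3K27ac peak of 4.04. NR2F2 had the widest H3K4me3 peak of all member windows, 1096 bp with a score of 3.76 at chr15:96876498-96877593, over exon 2. It overlapped 2 H3K27ac peaks with scores of 4.32 and 3.04, and 2 further H3K27ac peaks had a score of 1.55 each. Within 2 Mb of NR2F2 there was only 1 other protein-coding start.

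The H3K27ac peak of NR2E3 is shown because it had one of the 2 highest H3K27ac scores of the members, in the same form as those of RXRA and VDR (chr15:72084390-72084689, plus strand). It held 2 half-site matches.
NR2E3 upstream: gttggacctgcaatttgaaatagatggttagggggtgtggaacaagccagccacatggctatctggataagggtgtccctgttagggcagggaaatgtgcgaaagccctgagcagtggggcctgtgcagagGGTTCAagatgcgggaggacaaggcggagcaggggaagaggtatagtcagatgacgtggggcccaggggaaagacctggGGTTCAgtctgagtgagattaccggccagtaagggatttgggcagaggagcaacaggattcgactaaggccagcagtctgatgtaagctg

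Among the estrogen-related receptors, which regulate mitochondrial genes without a known natural hormone, ESRRA was marked and ESRRB and ESRRG were not. ESRRA had H3K4me3 scores of 3.11 and 1.75 and an H3K27ac score of 2.22 at its start, and a stronger H3K27ac peak (4.25) over exon 2. Of the 6 H3K4me3 peaks in its window, 3 lay at starts of other genes, with scores of 5.88 at CATSPERZ, 3.86 at TRMT112 and 6.50 at PRDX5. It lies in a densely marked stretch, where 87 of 152 other protein-coding starts within 2 Mb had H3K4me3 and 74 had H3K27ac. Around ESRRB, 32 of 49 other starts had H3K4me3 and 21 had H3K27ac, while ESRRB itself had neither.

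The NR4A genes are immediate early genes that are induced rapidly by many stimuli. NR4A1 had H3K4me3 at its outer start (2.92) and at an internal start 27.8 kb downstream (3.24), with H3K27ac scores between 2.22 and 2.87 in the window. NR4A2 had an H3K4me3 peak of 3.72 at its canonical start, 9.92 kb downstream of the outer start, and no H3K27ac peak, and NR4A3 had no peak. In the last group, NR6A1, the germ cell nuclear factor, had H3K4me3 scores of 4.54 and 1.64 and an H3K27ac score of 1.39 at its start. NR5A1, the steroidogenic factor, had 1 H3K4me3 peak (1.55) downstream of the gene, and NR5A2, the liver receptor homolog, had 1 H3K4me3 peak (1.64) in exon 2 and 1 H3K27ac peak (1.55) downstream.

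H3K27ac peaks were concentrated in some windows, as they were over all genes. At least 5 H3K27ac peaks were found in the windows of 5 members (11.1%, 3.71 to 24.1), beside 8.41% of all genes. These were RXRA with 19, VDR with 12, RARA with 10, RARG with 8 and PPARD with 7, which made 58.9% of the H3K27ac peaks in member windows. Over all protein-coding genes, windows with at least 5 made 46.9%. The same 5 windows held 25.7% of the H3K4me3 peaks. Of their 56 H3K27ac peaks, 39 lay away from every protein-coding start (69.6%, against 66.3% of the list). Of the same 56, 9 overlapped H3K4me3, while 24.0% of the complete list did. The 5 genes encode receptors for retinoids, vitamin D and fatty acids and the partner RXR alpha.

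**Figure D3:**
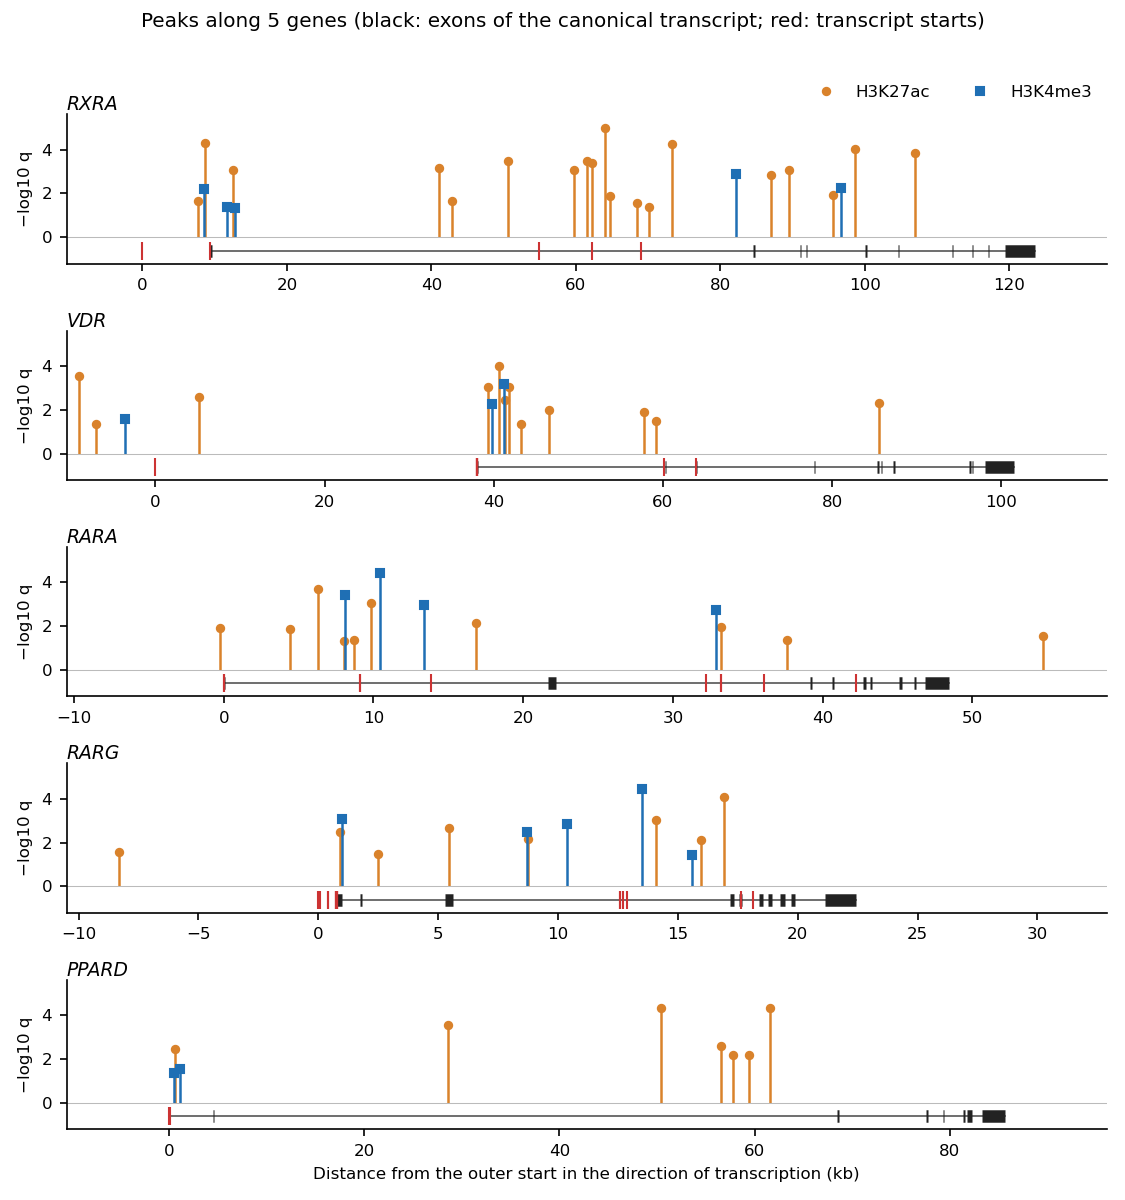
Peaks along RXRA, VDR, RARA, RARG and PPARD, with the distance from the outer start in kb on the horizontal axis and the score on the vertical axis, H3K27ac as orange circles and H3K4me3 as blue squares. Black blocks are exons of the canonical transcript and red ticks are annotated transcript starts, and most of the 56 H3K27ac peaks stand inside the genes and away from the outer start.

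The number of H3K27ac peaks per 100 kb of window was 13.2 in RXRA, 9.88 in VDR, 14.6 in RARA, 18.9 in RARG and 6.63 in PPARD, at the 95, 92.0, 96.0, 97.7 and 86.5 percentiles of all genes. Outside the window, the region within 2 Mb of each start held 1.74, 2.55, 2.77, 5.71 and 1.77 H3K27ac peaks per 100 kb. The region around RARG was the densest of the 5, and those around RXRA and PPARD were the sparsest. When H3K27ac peaks within 10 kb were joined, the largest joined region of RXRA held 11 peaks over 32.7 kb with 3.44 kb under peaks, rank 228 of 4606 regions. Those of RARG, RARA, PPARD and VDR ranked 296, 441, 732 and 948.

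**Figure D4:**
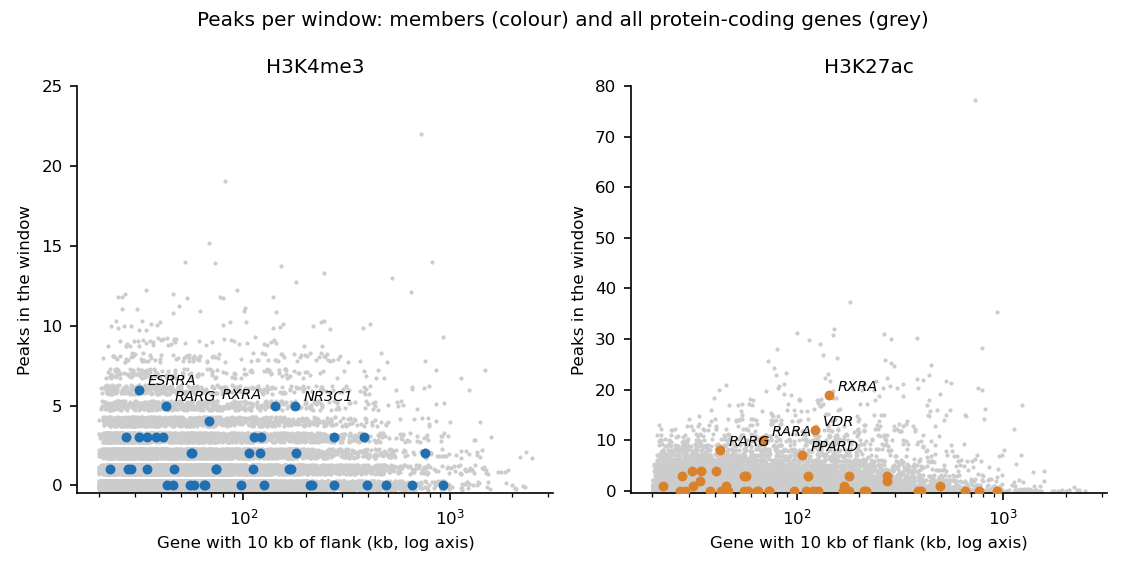
Number of H3K4me3 peaks (left) and H3K27ac peaks (right) in the window of each gene against the window length in kb on a log axis, members in colour and all protein-coding genes in grey, with grey points spread slightly in height to separate them. Members with at least 5 peaks are named, and RXRA with 19 H3K27ac peaks stands highest among them.

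Over all windows, the share of peaks that overlapped the other mark was close to that of the complete lists. Of the 73 distinct H3K4me3 peaks, 22 overlapped H3K27ac (30.1%, against 31.1% of the list), and of the 92 distinct H3K27ac peaks 24 overlapped H3K4me3 (26.1%, against 24.0%). An own transcript start lay within 1 kb of 40 H3K4me3 and 29 H3K27ac peaks. A transcript start of another protein-coding gene lay within 1 kb of 16 and 8, with some peaks counted under both kinds of start. No protein-coding start lay within 1 kb of 20 of the 73 and 56 of the 92, against 35.8% and 66.3% of the lists. In 6 members (RXRB, NR1H2, NR1H3, NR1H4, NR1I3 and NR0B2) every H3K4me3 peak of the window lay at another gene's start. Some of these peaks of RXRB and NR1H3 were also within 1 kb of an own start. The share of all genes with this pattern was not computed, and the gene to which such a peak belongs cannot be told from the list.

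CpG content, which the rule did not use, was compared between marked and unmarked starts as a description. The ratio of observed to expected CpG in the 1001 bases around the outer start had a median of 0.822 in the 6 members with both marks and 0.754 in the 8 with H3K4me3 alone. It was 0.283 in the 2 with H3K27ac alone and 0.369 in the 29 with neither. Over all protein-coding genes the medians were 0.786, 0.780, 0.722 and 0.449. Of 23 CpG-rich members, with a ratio of at least 0.6, 12 had H3K4me3 (52.2%, against 56.4% of all CpG-rich genes) and 5 had H3K27ac (21.7%, against 32.8%).

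Of 22 CpG-poor members, 2 had H3K4me3 (9.09%, against 11.4%) and 3 had H3K27ac (13.6%, against 9.91%) at the outer start. These were RARG and NR4A1 for H3K4me3, and RARG, RARA and NR2E3 for H3K27ac. Under the H3K4me3 peaks themselves, the ratio was 0.678 in RARG and 0.627 in NR4A1. Under the H3K27ac peaks it was 0.760 in RARG, 0.248 in RARA and 0.320 in NR2E3. When any transcript start was allowed, 9 members with a CpG-poor outer start had each mark (40.9%, 20.7 to 63.6), beside 22.9% of all CpG-poor genes for H3K4me3 and 18.6% for H3K27ac. Of the 23 members with a CpG-rich outer start, 60.9% then had H3K4me3, beside 60.6%, and 30.4% had H3K27ac, beside 38.8%. The ratio was taken at the outer start only, and the number of annotated starts per gene was not matched. The H3K27ac share of all CpG-poor genes, 18.6%, lay below the members' interval, and the cause was not tested. The unmarked starts included 11 CpG-rich ones, with NR2C2 the highest at 1.02, followed by NR4A2 at 0.877, NR1D2 at 0.820, NR4A3 at 0.815, and THRB and RORA at 0.811 each.

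**Figure D5:**
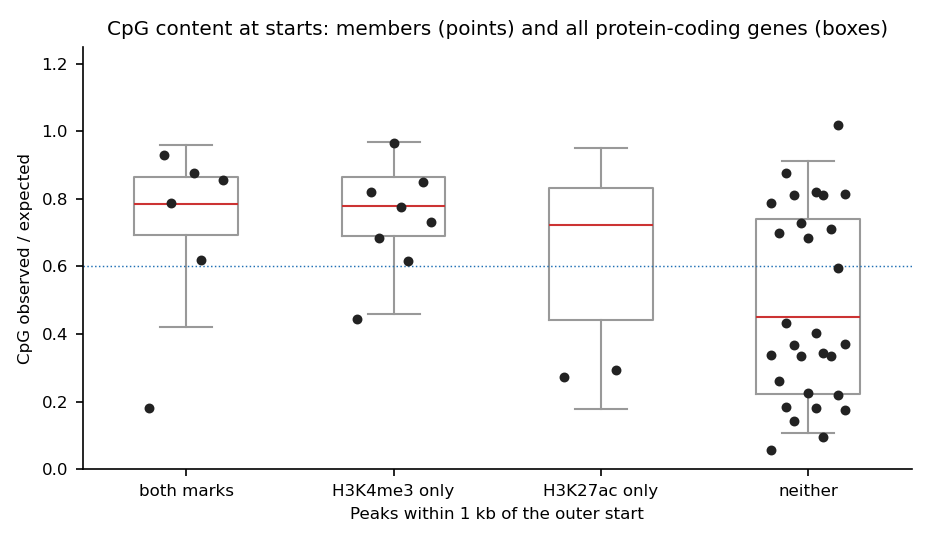
Ratio of observed to expected CpG around the outer start (vertical axis) by the marks within 1 kb of it, members as points and all protein-coding genes as boxes (median in red, quartiles, whiskers from the 5th to the 95th percentile). The dotted line is the limit of 0.6, and 11 of the 29 unmarked members lie above it.

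Sequence motifs of nuclear receptors were counted in the 300 bases at the centre of each peak. Any of the 4 half-sites defined above, on either strand, occurred in 45 of 92 H3K27ac centres in member windows (48.9%), against 56.2% of all H3K27ac centres, and in 30 of 73 H3K4me3 centres (41.1%), against 47.5%. The letters AGGTCA alone occurred in 20.7% and 12.3%, against 26.0% and 19.5%. A direct repeat of such half-sites with a spacer of 1 to 5 bases occurred in 0 of 92 and 1 of 73 centres, against 2.71% and 1.76% of the lists. The single match, with a spacer of 4 bases, lay in the H3K4me3 peak at PRDX5 in the ESRRA window. In the 250 bases before outer starts, a half-site occurred in 16 of 45 members (35.6%), beside 33.4% of all genes.

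The letters TCAAGGTCA, the extended half-site known from the estrogen-related and NR5A receptors, which contains AGGTCA, occurred in 4 of 92 H3K27ac centres (4.35%, 1.2 to 10.8), against 0.398% of all H3K27ac centres, and in 0 of 73 H3K4me3 centres, against 0.350%. It was one of several motifs counted. The direct repeat with a spacer of 4 bases was also above its list share, by its single match in 73 H3K4me3 centres (1.37%, against 0.140%). AAAGGTCA occurred in 0 of 92 H3K27ac centres, against 0.901%, and in 1 of 73 H3K4me3 centres (1.37%), against 0.958%. In the promoters of 250 bases, AAAGGTCA occurred in 1 of 45 (2.22%), beside 0.977%, and TCAAGGTCA in 0 of 45, beside 0.258%. AGAACA, the glucocorticoid half-site, occurred in 12.0% of the H3K27ac centres, against 14.4%, and in 8.22% of the H3K4me3 centres, against 11.3%. In the promoters AGAACA was above the share of all genes, in 7 of 45 (15.6%), beside 10.9%. The 4 TCAAGGTCA matches lay in the strongest H3K27ac peaks of NR1D1 and PPARD, described above, and in a weak peak of RARA (1.39) at chr17:38474018-38474234. A match of letters does not show that a receptor was bound. The centres of the NR1D1 and PPARD peaks are printed on the plus strand with TCAAGGTCA, on either strand, in capitals. They lie at chr17:38259452-38259751, chr6:35360637-35360936 and chr6:35371796-35372095.
NR1D1 upstream: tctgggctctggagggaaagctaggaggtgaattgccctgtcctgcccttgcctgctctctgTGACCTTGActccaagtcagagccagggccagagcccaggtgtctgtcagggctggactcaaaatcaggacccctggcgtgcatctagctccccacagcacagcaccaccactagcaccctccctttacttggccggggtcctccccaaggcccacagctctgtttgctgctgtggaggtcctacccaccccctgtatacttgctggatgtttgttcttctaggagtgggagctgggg
PPARD intron 2, first: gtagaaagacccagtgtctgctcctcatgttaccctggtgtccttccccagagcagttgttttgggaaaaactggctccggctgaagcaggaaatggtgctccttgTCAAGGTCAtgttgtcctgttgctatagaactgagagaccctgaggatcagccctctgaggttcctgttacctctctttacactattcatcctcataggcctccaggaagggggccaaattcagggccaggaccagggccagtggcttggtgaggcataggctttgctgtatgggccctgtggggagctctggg
PPARD intron 2, second: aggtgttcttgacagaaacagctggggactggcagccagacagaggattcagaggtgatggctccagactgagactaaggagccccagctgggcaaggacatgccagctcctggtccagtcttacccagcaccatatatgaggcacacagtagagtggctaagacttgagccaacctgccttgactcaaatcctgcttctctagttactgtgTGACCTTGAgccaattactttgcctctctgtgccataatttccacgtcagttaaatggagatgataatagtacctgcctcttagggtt

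The genes that work with the receptors were counted in the same way, within 1 kb of the outer start, and the highest score is given for each mark. Of 15 coactivators, 8 had H3K4me3, led by PELP1 (10.8), and 6 had H3K27ac, led by NCOA1 and NCOA3 (3.55 each). Of 11 corepressors, 6 had H3K4me3, led by SIN3A (5.98), and 5 had H3K27ac, led by KDM1A (3.55), while TBL1XR1, HR, NCOR1 and TBL1X had neither. With any transcript start, 8 corepressors had each mark. Of 7 steroid receptor chaperones, 2 had H3K4me3, led by HSP90AA1 (3.30), and 3 had H3K27ac, led by PTGES3 (3.55). HSP90AB1, STIP1 and HSPA8 had neither at the outer start, but with any transcript start 5 chaperones had H3K4me3 and all 7 had H3K27ac. Of 11 core clock genes, 9 had H3K4me3, led by NPAS2 (6.39), and 5 had H3K27ac, led by CLOCK (5.98), while PER2 and TEF had neither.

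The remaining lists held genes that handle the ligands and known target genes. Of 14 retinoid handling genes, 4 had H3K4me3, led by CRABP2 (6.39), and 1 had H3K27ac, FABP5 (3.40), and with any transcript start these counts were 7 and 5. Of 15 genes for vitamin D, thyroid and steroid hormones, 3 had H3K4me3, led by SRD5A1 (4.60), and 4 had H3K27ac, led by CYP2R1 (4.32). Of 10 targets of steroid receptors, 4 had each mark, led by DUSP1 for H3K4me3 (6.39) and PER1 for H3K27ac (5.31), while SGK1, TFF1, XBP1 and TSC22D3 had neither. Of 19 targets of lipid, bile acid and xenobiotic sensors, 7 had H3K4me3 and 2 had H3K27ac, led by SREBF1 for both marks (5.42 and 5.87). The outer-start shares stand beside 38.2% and 23.6% of all protein-coding genes, and the shares with any transcript start beside 45.4% and 30.7%. With any transcript start, H3K4me3 and H3K27ac were at 8 and 7 coactivators and 10 and 6 core clock genes. They were at 4 and 6 genes for vitamin D, thyroid and steroid hormones. Of the targets, they were at 6 and 4 for steroid receptors and 8 and 2 for the sensors. No test was made between lists.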

How the data were processed

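H2087 cells were untreated and 1 library was made per mark, beside an input library that was not analysed here. According to the study's methods and the submitters' processing notes, reads were aligned to hg19 (GRCh37) with Bowtie 1.1.1 and peaks were called with MACS2 2.1.0, and bcl2fastq 1.8.4, SAMtools 1.2, Picard 1.118 and ChIPseeker 1.6.6 are also named. Input was kept for normalization, and its part in peak calling, the threshold and the treatment of duplicates are not given in the sources used here. The deposited peak lists hold a position and a value without a header, which was read as the −log10 q-value from its range. This value depends on depth, which is unknown, so a missing peak may also mean too few reads.

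Distinct intervals were taken as peaks, with the highest score of each (20282 and 25275 entries for H3K4me3 and H3K27ac). Genes were those of GENCODE 44 mapped to GRCh37. A start was marked by a peak within 1 kb, and a window was the gene with 10 kb on each side. Positions are 1-based. The alternatives were other score limits, distances, flanks and starts, and merging of peaks. Python 3.11.15, pandas 2.3.3, SciPy 1.17.1, pysam 0.24.0 and matplotlib 3.10.9 were used. The interval code was tested on simulated data. The members, gene lists and motifs were chosen with earlier results of these data known. All 45 members were named. Those with a peak at the start or at least 3 peaks of a mark in the window were given with values for some or all of their peaks. Of each list, the highest start peak of each mark was named, and the genes with neither mark where they were 5 or fewer. The list of targets of retinoid, vitamin D or thyroid hormone receptors is not reported here.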

Additional observations from a re-analysis of the deposited data

How the results depend on the processing

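Of 41 alternative values for 7 counts, 22 stayed within a factor of 1.5 and 19 did not. With peaks at or above the median score of their list, H3K4me3 remained at 8 outer starts, H3K27ac at 2 and both at 1, and the windows held 33 H3K4me3 and 42 H3K27ac peaks. With a score of at least 5, the starts had 0, 1 and 0, the members with a window peak were 5 and 3, and the peaks 6 and 2. Within 500 bp of the start, H3K27ac was at 5 starts and both marks at 3. With any transcript start the counts were 23, 16 and 13. With 50 kb of flank the windows held 119 and 161 peaks. The start of the canonical transcript, chosen after seeing the data, gave 17, 9 and 7 members. Merging, 3 kb and no flank stayed within the factor. No paired analysis was possible because there was only 1 library for each mark. Without replicates or read depth, these counts describe 1 library per mark.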
